A study of Mus musculus with 8 samples.

Results

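Solute carrier genes encode membrane proteins that move nutrients, ions and metabolites into cells or between the cytosol and organelles. The 8 described here are every gene whose symbol starts with Slc and a digit among the 259 genes of the authors' deposited table, and they are Slc28a3, Slc25a18, Slc1a2, Slc5a8, Slc25a35, Slc38a7, Slc6a9 and Slc5a9. The table compares mRNA of mouse mammary epithelial cells (MECs, FVB strain, named PyVmT in the series text) in which Uba7 was knocked out in both arms. One arm carried an empty vector and the other UBE1L, the Uba7 protein, which activates ISG15 for attachment to other proteins (ISGylation). Both arms were primed with IFN (interferon; its type, dose and duration are not stated in the labels) and received LPS, a bacterial membrane lipid, at 100 ng/mL for 6 hours. Each arm has 2 libraries by the labels, which do not say whether these came from separate cultures or whether the cells of an arm are 1 clone, so the p-values may reflect technical spread alone. No arm with intact Uba7 is described.

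Many solute carriers use an ion gradient to drive their substrate across a membrane, and members of a family share ancestry but often differ in substrate, tissue and membrane. In epithelia they set the uptake of amino acids, sugars, short-chain fatty acids and nucleosides, and the mitochondrial carriers of the SLC25 family link the cytosol to the matrix. By these textbook roles, 5 of the 8 genes encode sodium-coupled uptake carriers of the plasma membrane (Slc28a3, Slc1a2, Slc6a9, Slc5a8 and Slc5a9), 2 encode carriers of the mitochondrial inner membrane (Slc25a18 and Slc25a35) and 1 encodes a lysosomal carrier (Slc38a7).

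Uba7, the gene added in the UBE1L arm, was itself 52.7-fold higher there by the authors' deposited table, the direction that the labels give. All 8 solute carrier genes were higher in the UBE1L cells and 0 were lower. Since 83.8% of the 259 listed genes were higher, and since the genes were picked by being listed, nothing about solute carriers in particular is read from that count. The log2 fold changes ran from 0.50 for Slc5a9 to 1.56 for Slc28a3 in the authors' deposited table, with a median of 0.83. The median was 0.72 over all 217 higher genes listed there. Every gene listed had an absolute log2 fold of at least 0.50 and an adjusted p of at most 0.0498. Slc5a9 lies just inside the fold limit, and its adjusted p of 0.0275 is the highest of the 8; no gene outside the limits is among the rows used here. The table gives the comparison of the arms and an average abundance, with no value per library, so the overlap of the libraries cannot be shown. An offset of 0.28 log2 units would balance the listed upper and lower tails, and relative to it the 8 log2 folds run from 0.23 for Slc5a9 to 1.28 for Slc28a3. Since every listed fold is larger than this offset, it could turn no direction.

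**Figure D1:**
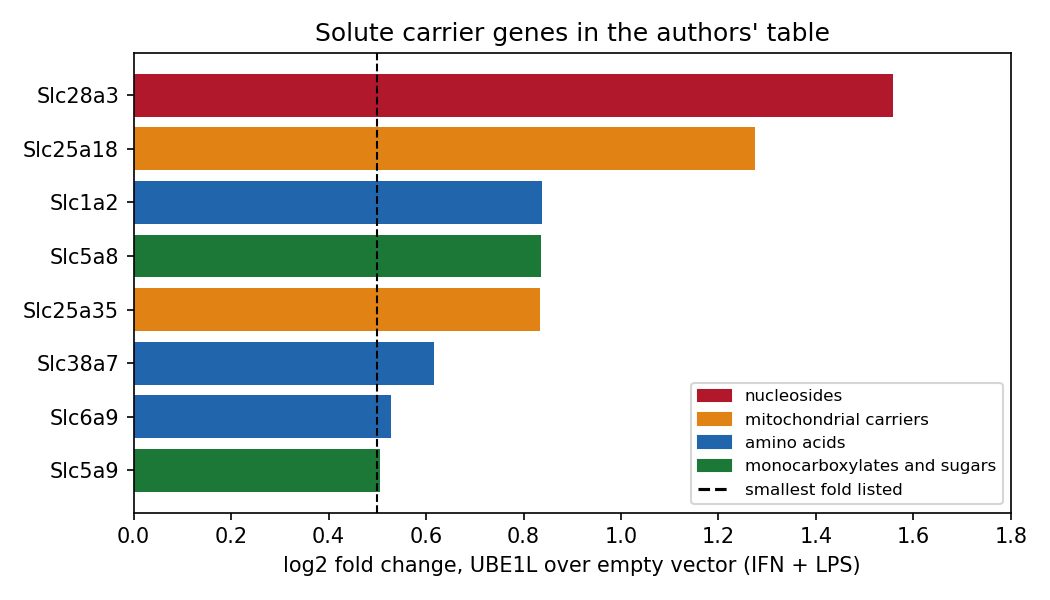
Horizontal bars give the log2 fold change of each solute carrier gene, UBE1L over empty vector with IFN and LPS, from the authors' deposited table, coloured by substrate; the dashed line marks 0.50, the smallest absolute fold listed. Slc28a3 (1.56) and Slc25a18 (1.28) stand above 1, and Slc1a2, Slc5a8 and Slc25a35 are all at 0.83 to 0.84.

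The sequences before the transcription start were taken from RefSeq (GRCm38.p6) for the 4 genes with the smallest p-values of the 8. All 8 genes were higher, so direction does not set these 4 apart, and shared control was not tested. Each is the 250 bases upstream of the first listed start, written 5′ to 3′ on the gene's strand. The window of Slc28a3 lies at chr13:58610878-58611127 (minus strand), Slc5a8 at chr10:88885742-88885991 (plus strand), Slc38a7 at chr8:95853492-95853741 (minus strand) and Slc6a9 at chr4:117835008-117835257 (plus strand). Capitals mark matches to any of the 10 motifs described further on.
Slc28a3: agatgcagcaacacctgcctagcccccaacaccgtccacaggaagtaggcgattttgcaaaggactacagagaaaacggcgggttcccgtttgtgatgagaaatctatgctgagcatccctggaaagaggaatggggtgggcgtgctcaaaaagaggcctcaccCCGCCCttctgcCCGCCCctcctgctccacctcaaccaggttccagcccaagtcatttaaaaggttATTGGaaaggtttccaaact
Slc5a8: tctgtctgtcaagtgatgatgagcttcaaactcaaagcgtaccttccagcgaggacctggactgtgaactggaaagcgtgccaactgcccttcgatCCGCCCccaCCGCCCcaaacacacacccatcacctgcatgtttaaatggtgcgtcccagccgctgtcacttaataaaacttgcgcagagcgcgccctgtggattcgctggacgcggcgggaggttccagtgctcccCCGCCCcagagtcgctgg
Slc38a7: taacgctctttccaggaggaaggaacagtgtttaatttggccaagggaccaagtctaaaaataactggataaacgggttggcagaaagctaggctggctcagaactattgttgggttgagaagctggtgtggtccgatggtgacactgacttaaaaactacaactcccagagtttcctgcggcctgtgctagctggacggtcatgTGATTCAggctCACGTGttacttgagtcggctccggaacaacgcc
Slc6a9: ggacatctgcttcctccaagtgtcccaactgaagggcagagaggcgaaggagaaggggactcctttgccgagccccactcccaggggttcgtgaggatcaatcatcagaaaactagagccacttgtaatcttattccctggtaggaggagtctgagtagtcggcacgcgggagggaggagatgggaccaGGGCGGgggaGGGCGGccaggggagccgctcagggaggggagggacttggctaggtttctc

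Slc28a3 encodes CNT3, a concentrative nucleoside transporter that takes up purine and pyrimidine nucleosides, and nucleoside drugs, with sodium. By the authors' deposited table its transcript was 2.94-fold higher with UBE1L, a log2 change of 1.56 with an adjusted p of 8.85e-06. It had the largest fold of the 8, and rank 8 by fold among the 217 higher genes. Its mean abundance in the authors' deposited table was low, at 1.65 log2 CPM (3.13 CPM, a count scaled to the size of the library). Its likelihood-ratio score, which grows with the evidence against equal arms, was 26.1 in the authors' deposited table. Among the 29 other listed genes within 0.5 log2 CPM of it, 1 had a higher score. The nucleoside transporter list of 7 genes, which holds the concentrative Slc28 and the equilibrative Slc29 carriers, had this 1 member in the table, higher, and 6 not listed. The 17 enzymes of the nucleoside list, among them the kinase Dck and the deaminase Ada, had 0 listed members. With 1.14% of all annotated protein-coding genes listed, 0 of 17 is not read further. Pnp2, a purine nucleoside phosphorylase gene outside that list and noticed after its value was seen, was higher by 1.22 log2 units in the authors' deposited table, with 28.5% of its 50-base stretches shared with other genes.

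The amino acid carriers were represented by 3 genes, at log2 folds of 0.53 to 0.84. Slc1a2 encodes GLT-1 (EAAT2), the sodium-dependent glutamate transporter best known from astrocytes. The authors' deposited table puts it 1.79-fold higher, or 0.84 log2 units, at 1.43 log2 CPM and with an adjusted p of 0.0268. None of the 7 glial and neuronal markers looked up, such as Gfap and Rbfox3, is among the listed genes, where 1.14% of all annotated protein-coding genes appear. Outside those 7, some genes that astrocytes, other glia or neural cells also express were picked out after their values were seen. By log2 fold in the authors' deposited table, Ndrg2 (1.92, at an abundance of only -0.07 log2 CPM), Aldoc (0.75) and Gpm6b (0.69) were higher. Ngfr (-1.19, at an abundance of only 0.09 log2 CPM), Sox11 (-0.71) and Id4 (-0.57) were lower in the authors' deposited table. A glial pattern was not tested. Slc6a9 encodes GlyT1, a sodium- and chloride-coupled glycine transporter. In the authors' deposited table it stood 1.44-fold higher, or 0.53 log2 units, with an adjusted p of 8.03e-14. With 5.65 log2 CPM there, it had the highest CPM of the 8. Slc38a7 encodes SNAT7, which exports glutamine from lysosomes. Its rise in the authors' deposited table was 1.53-fold, or 0.62 log2 units, with an adjusted p of 4.67e-07 at an abundance of 4.02 log2 CPM. Slc6a9 and Slc38a7 thus combined smaller folds with far smaller p-values than Slc1a2, the one of the 3 with few reads.

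Most other amino acid carriers were not in the table. Of 26 plasma membrane amino acid transporters, 2 were listed as higher (Slc1a2 and Slc6a9), 0 as lower and 24 not at all, the last including the cystine carrier Slc7a11 and the neutral amino acid carriers Slc7a5 and Slc1a5. Of 7 lysosomal amino acid transporters, Slc38a7 was the 1 listed. No member was listed of 13 enzymes of glutamate and glutamine metabolism or of 13 enzymes of serine, glycine and one-carbon metabolism. Those lists are not complete. Oplah, a gene outside them whose enzyme forms glutamate, was picked out after its value was seen. It was higher by 0.80 log2 units (adjusted p 0.0370) in the authors' deposited table. Slc6a9 is also on a list of 19 targets of ATF4, the transcription factor of the amino acid response, of which 4 were higher and 0 lower. The list was chosen with these results known, and 1.14% of all annotated protein-coding genes are in the table in either direction, whether or not they were tested. From the authors' deposited table, the log2 folds of the other 3 were 0.70 for Ddit3, 0.57 for Trib3 and 0.54 for Sesn2. A gene that is not listed may have been untested, under the fold limit or above the p limit, so it is not counted as unchanged.

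Among the sodium-coupled carriers of the SLC5 family, 2 genes were listed. Slc5a8 encodes SMCT1, a transporter of lactate, pyruvate and short-chain fatty acids such as butyrate. With UBE1L it rose 1.78-fold, or 0.84 log2 units, by the authors' deposited table, with an adjusted p of 4.00e-22 at 5.56 log2 CPM. Its likelihood-ratio score of 106 was the highest of the 8 and rank 14 of all 259 in the authors' deposited table. Slc5a9 encodes SGLT4, a transporter of mannose and related sugars. The authors' deposited table lists it 1.42-fold higher, or 0.50 log2 units, with the adjusted p of 0.0275 given above, at 3.22 log2 CPM. Its likelihood-ratio score of 7.01 there was the lowest of the 8. Of the 74 other listed genes within 0.5 log2 CPM of Slc5a9, 70 had a higher score and 4 a lower one. The SLC5 pair therefore spans the strongest and the weakest score of the group. The remaining 11 of the 13 SLC5 genes were not listed. Neither were the 11 facilitative glucose transporters (Slc2 genes) or the 7 proton-coupled monocarboxylate and related transporters (Slc16 genes), families that move sugars or monocarboxylates without sodium. Such absences are not read further, as 1.14% of all annotated protein-coding genes are listed.

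The mitochondrial carriers were Slc25a18 and Slc25a35. Slc25a18 encodes a mitochondrial glutamate carrier (GC2), which brings glutamate into the matrix. By the authors' deposited table it was 2.42-fold higher, or 1.28 log2 units (adjusted p 0.0204). At 0.89 log2 CPM it had the lowest CPM of the 8. Slc25a35 encodes a carrier of the same family. Its change in the authors' deposited table was 1.78-fold, or 0.83 log2 units, with an adjusted p of 0.00108 at 2.66 log2 CPM. Of the 4 mitochondrial glutamate and aspartate carriers, Slc25a18 was the 1 listed. The near relatives Slc25a22, the other glutamate carrier, and Slc25a12 and Slc25a13, the aspartate-glutamate exchangers, were not listed. Of 9 dicarboxylate and related carriers, Slc25a35 was the 1 listed. Its place on that list is not a statement of its substrate, which is not given here. Transporters outside the Slc families that were looked up, 18 ion pumps and ATP-binding cassette genes and 9 aquaporins, had 0 listed members. Of all annotated protein-coding genes 1.14% are listed, so these counts of 0 are not read further. Those lists are not complete, and 2 such genes outside them, picked out after their values were seen, were higher in the authors' deposited table: the cassette gene Abca8b by 0.62 and the proton-pump subunit gene Atp6v1b1 by 0.84 log2 units.

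**Figure D2:**
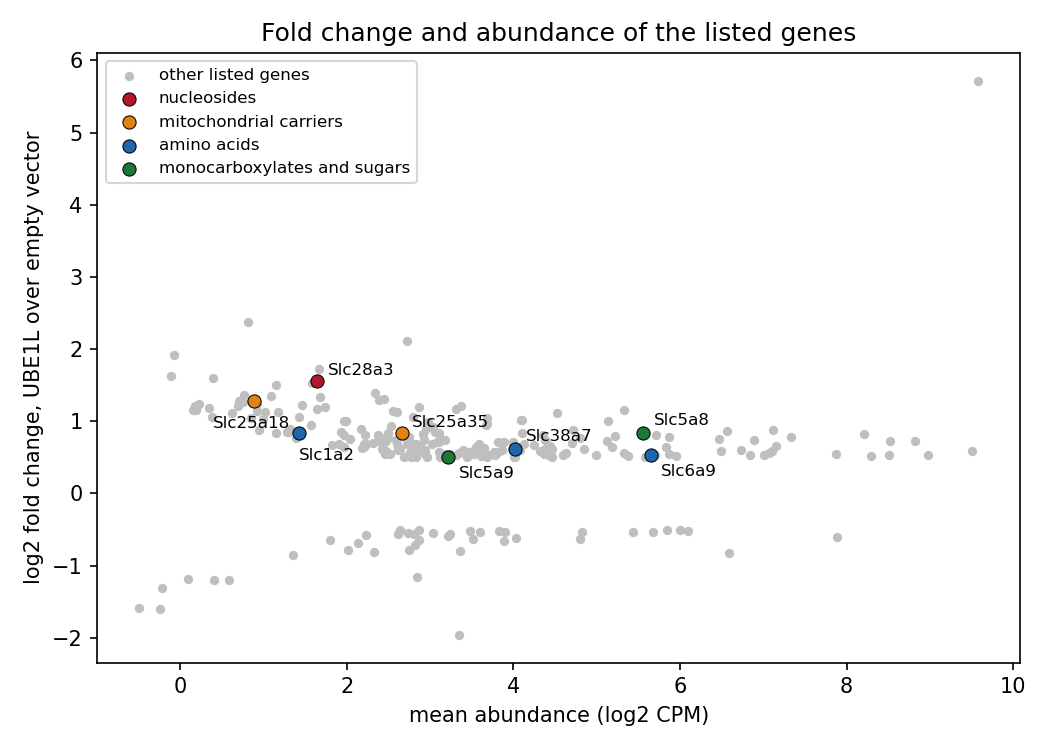
Each point is a gene of the authors' deposited table, with mean abundance in log2 CPM on the horizontal axis and log2 fold change (UBE1L over empty vector) on the vertical axis; grey points are the 251 other genes and coloured points the 8 solute carrier genes. Slc28a3 and Slc25a18 are high in fold and low in abundance, and Slc5a8 is at 0.84 with 5.56 log2 CPM; the grey point at the upper right is Uba7, the transgene, at 5.72.

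Fold and abundance ran in different orders over the 8 genes. The median abundance was 2.94 log2 CPM for the 8 and 2.95 for all 259 genes in the authors' deposited table. Below 2 log2 CPM were Slc28a3, Slc1a2 and Slc25a18, and a gene at such a level needs a larger fold to pass the p limit. The labels' protocols state a depth of about 25000000 reads per sample. If every read were counted, the mean CPM in the authors' deposited table would stand for about 46 reads of Slc25a18, 67 of Slc1a2 and 78 of Slc28a3 in a library. The same reckoning gives 1179 reads for Slc5a8 and 1253 for Slc6a9. The actual library sizes are unknown here.

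**Figure D3:**
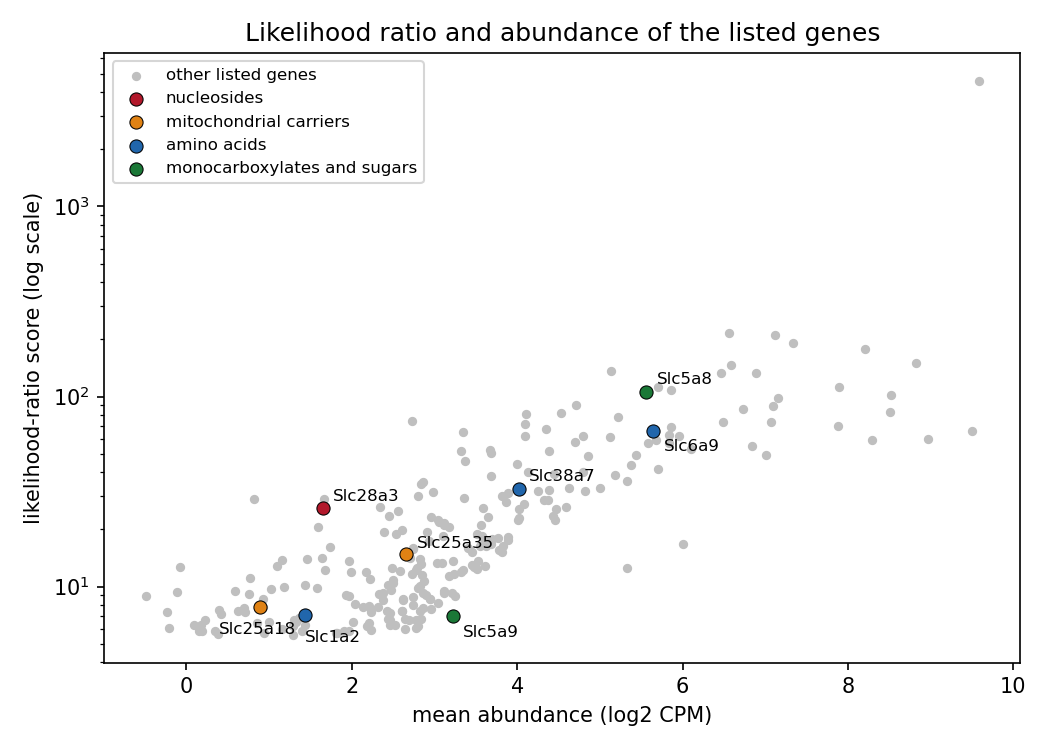
Each point is a gene of the authors' deposited table, with mean abundance in log2 CPM on the horizontal axis and the likelihood-ratio score on a log vertical axis; colours are as in the plot of fold against abundance. Slc5a8 (106) and Slc6a9 (66.2) score highest of the 8, Slc28a3 (26.1) is high for its abundance, and Slc5a9 (7.01) is at the lower edge for its abundance.

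CPM counts reads per gene whatever its length, so levels of different genes were set side by side per kilobase of transcript, between the longest and the shortest complete coding transcript in GENCODE M21. On this scale Slc6a9 was the highest, at 14.4 to 26.7 CPM per kilobase. Slc5a8 followed at 8.84 and Slc38a7 at 4.87 to 4.89 CPM per kilobase. Slc5a9, at 2.08 to 3.78, and Slc25a35, at 1.73 to 3.45 CPM per kilobase, overlapped and have no order between them. Slc25a18 was at 0.97 and Slc28a3 at 0.69 CPM per kilobase. Slc1a2 has coding transcripts of 1957 to 11595 bases, which puts its level anywhere from 0.23 to 1.38 CPM per kilobase, a range that holds the values of Slc25a18 and Slc28a3. These levels carry no error between libraries and are averages over libraries that the header does not name.

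**Figure D4:**
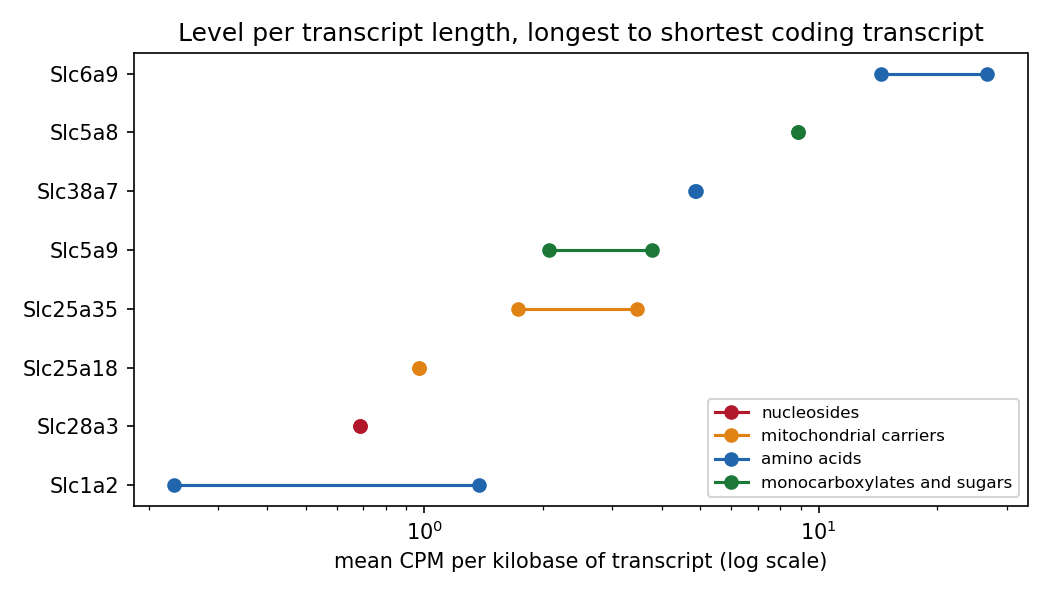
Points joined by a line give the mean CPM of each gene in the authors' deposited table per kilobase of its longest (left) and shortest (right) complete coding transcript, on a log axis. Slc6a9, Slc5a8 and Slc38a7 are separate from all others, while the range of Slc1a2 (0.23 to 1.38) covers Slc28a3 and Slc25a18.

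The 8 genes come from 6 of the numbered Slc families. RefSeq (GRCm38.p6) annotates 375 protein-coding genes whose symbol starts with Slc and a digit, of which the 8 are 2.13%. The 250 listed genes with a protein-coding entry of the same symbol are 1.14% of 21900. How many of either kind were expressed and tested is unknown, so these shares were not tested against each other. By family, the table holds 1 of 4 Slc28, 1 of 7 Slc1, 2 of 13 Slc5, 1 of 11 Slc38, 1 of 21 Slc6 and 2 of 47 Slc25 genes. None of the 80 nearest protein-coding neighbours, 5 on each side of each of the 8 genes, is among the listed genes. Sequence shared with other genes is small. Slc28a3 shares 2.20% and Slc1a2 0.38% of the 50-base stretches of their transcripts with other genes, and the other 6 share none.

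Promoter sequences before the start were on hand for 6 of the 8 genes, with 8 starts in all, 3 of them for Slc6a9. Slc25a35 and Slc5a9 had none in the table used. The start given for Slc1a2 lies inside the gene's annotated span, so its window is not upstream of the whole gene. Each window of 250 bases was searched on both strands for 10 short motifs. The interferon-response letters (ISRE, GAAA and again GAAA with any 2 bases between), the STAT letters TTCNNNGAA (GAS) and the NF-kB letters (GGG and TTTCC with any 2 bases between) occurred in 0 of the 8 windows. Over all 32841 promoter windows they occurred in 2.98%, 7.02% and 1.41%. The letters TGATGNAA (amino acid response element core, 3.45% of all windows) and TGACGTCA (CRE, 1.55%) also occurred in 0 of the 8, those of Slc6a9 included.

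The Slc38a7 window was the one with TGANTCA (AP-1, 6.75% of all windows), 45 bases before the start, and with CACGTG (E-box, 6.02%), 34 bases before it; both stand in capitals in its sequence. GGGCGG (GC box, 32.7% of all windows) occurred in the windows of Slc28a3, Slc5a8 and the first start of Slc6a9, or 3 of 8. CCAAT (33.9% of all windows) occurred in that of Slc28a3 on the opposite strand, overlapping no other match. TATAAA (12.4%) occurred in that of Slc25a18 alone of the 8, on the opposite strand and 75 bases before the start. The windows ranged in GC content from 44.8% for Slc1a2 to 60.8% for Slc6a9, around the median of 52.4% over all windows. The 8 windows thus have no motif of the 10 in common, and a window without a match says only that those letters are not in it.

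Some listed genes mark cell types. Of 15 luminal epithelial markers, Kit was listed as higher (1.02 log2 units), and of 9 fibroblast markers Col3a1 (0.82), Col1a1 (0.52) and Dcn (0.51) were, in the authors' deposited table, where 1.14% of all annotated protein-coding genes appear. No member was listed of the 8 basal and myoepithelial, the 9 leukocyte or the 7 endothelial and adipocyte markers. Levels of unlisted markers are not among the values used here, so the epithelial label was not checked, and the part of other cell types in the solute carrier folds was not tested. In bulk RNA, more RNA per cell and more cells of an expressing type cannot be told apart. Other differences between the arms than UBE1L cannot be told apart from it either.

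Stricter settings divided the 8 genes in different ways. An adjusted p under 0.01 kept 5 of the 8 and dropped Slc25a18, Slc1a2 and Slc5a9. It kept 153 of the 217 higher listed genes, which are 59.1% of all 259. A log2 fold of at least 1 kept 2 (Slc28a3 and Slc25a18), against 51 of the 217 higher genes (19.7% of all 259). The number of tests is not known here. Bonferroni correction over 6414, a stand-in obtained by rounding up the constant that links the deposited p-values and adjusted p-values, kept 4 of the 8. Of the 217 higher genes it kept 92 (35.5% of all 259). An abundance of at least 2 log2 CPM kept 5 of the 8 and 168 of the 217 higher genes (64.9% of all 259). Once the offset was subtracted, 5 of the 8 and 90 of the 217 stayed past the fold limit (34.7% of all 259). No gene of the 8 passed all of the 5 stricter settings. Slc28a3 and Slc5a8 each passed 4 of them, Slc28a3 missing the abundance minimum and Slc5a8 the fold of at least 1, and Slc1a2 and Slc5a9 passed 1 each.

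**Figure D5:**
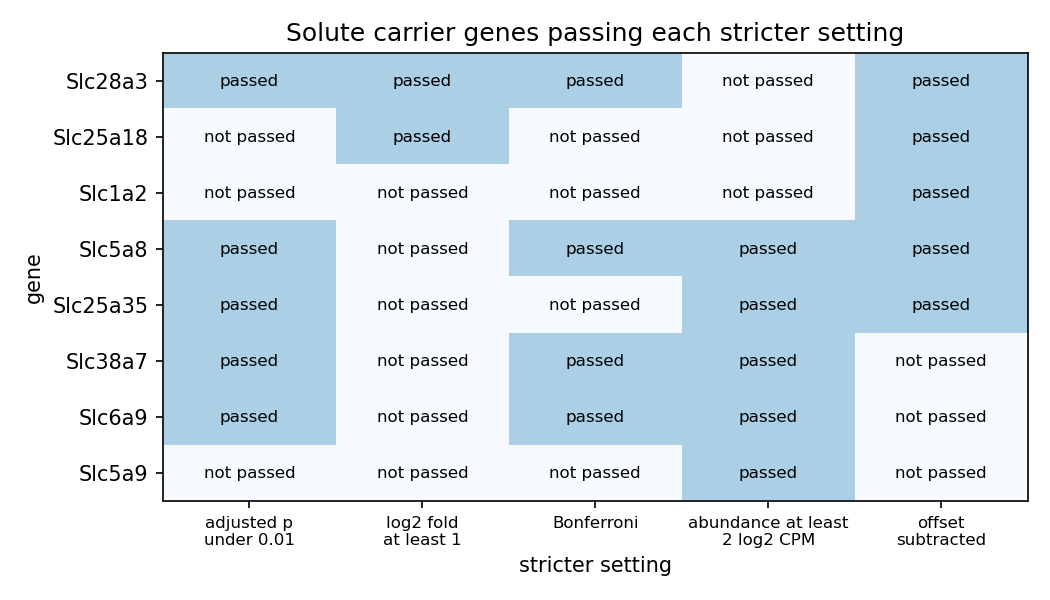
Rows are the 8 solute carrier genes, ordered by fold, and columns are 5 stricter settings applied to the authors' deposited table; shaded cells passed. Slc28a3 and Slc5a8 pass 4 of 5 settings, and Slc1a2 and Slc5a9 pass 1.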

How the data were processed

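Total RNA of the MECs (integrity numbers 9.2 to 10.0) was made into stranded mRNA libraries and read as single 50-base reads, per the labels' protocols. The submitters' processing notes name Trimmomatic 0.36, Salmon 0.9.1 and edgeR, with no role or order; the genome build, annotation and statistical model are not given here. The 5 columns of results are the authors' own comparison. Per the file headers, the deposited fold is a log ratio and abundance is log CPM, both read as log2 because edgeR writes such columns so. The likelihood-ratio score, p-value and adjusted p-value were used as deposited by the authors; the header of the last names both Bonferroni and FDR. Depth per library is unknown, and no counting interval is given.

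No test was run, because the rows were selected by their results and hold no value per library. Rows whose symbol starts with Slc and a digit were taken and all are named, as is every other listed gene of 20 gene lists that the text uses. The genes and lists were chosen with earlier results of these data known. Linear values are powers of 2 of the deposited logs. Shared sequence was counted as 50-base stretches found in GENCODE M21 transcripts of another gene on the same strand, and was checked on simulated sequences. Names, neighbours and promoters come from RefSeq (GRCm38.p6). The table names no build, so coordinates are those of the RefSeq promoters alone. The settings tried were an adjusted p under 0.01, a log2 fold of at least 1, Bonferroni, an abundance minimum of 2 log2 CPM, a recentring offset and shared stretches under 20%. Python 3.11.15, pandas 2.3.3, numpy 2.4.6, scipy 1.17.1 and matplotlib 3.10.9 were used.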

Additional observations from a re-analysis of the deposited data

How the results depend on the processing

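The 8 solute carrier genes, all higher as deposited, became 5 at an adjusted p under 0.01, 2 at a log2 fold of at least 1 and 4 under Bonferroni over 6414, a stand-in for the unknown number of tests (Slc28a3, Slc5a8, Slc38a7 and Slc6a9). An abundance of at least 2 log2 CPM left 5, without Slc28a3, Slc25a18 and Slc1a2. Subtracting the offset of 0.28 log2 units left 5 past the fold limit of 0.50, without Slc38a7, Slc6a9 and Slc5a9. In the same order, these settings kept 153, 51, 92, 168 and 90 of the 217 higher listed genes. Those are 59.1%, 19.7%, 35.5%, 64.9% and 34.7% of all 259 listed genes. Each setting selects among deposited values, so lower counts follow from its construction. All 8 had under 20% shared stretches. No paired analysis was possible because single libraries have no column. Fits without a replicate, with other scaling or with other filters on counts were planned and not run, also for want of such columns.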

Other observations

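Approximate standard errors were derived after seeing the data, as the log2 fold divided by the square root of the likelihood ratio, both from the authors' deposited table. They were smallest for Slc6a9 (0.07 log2 units), Slc5a8 (0.08) and Slc38a7 (0.11), and larger for Slc5a9 (0.19), Slc25a35 (0.22), Slc28a3 (0.31), Slc1a2 (0.31) and Slc25a18 (0.46). The approximate 95% interval was 0.96 to 2.16 for Slc28a3, 0.38 to 2.17 for Slc25a18 and 0.68 to 0.99 for Slc5a8, in log2 units. Built from the score behind the listing, such an interval leaves out equal arms for every listed gene. It is no separate evidence of a rise, and it is not corrected for the selection by fold. Differences between these folds were not tested. For Slc5a9 the value of 0.19 stood against a median of 0.18 over the 74 other listed genes of like abundance, of which 25 had a larger one. Since this error is computed from the fold and the score, it gives no separate account of the low score.

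In the authors' deposited table each adjusted p equals p times a constant divided by a whole number, and this number acts as a rank by p. It was 14 for Slc5a8, 32 for Slc6a9, 159 for Slc38a7 and 238 for Slc28a3. It was 707 for Slc25a35, 1657 for Slc25a18, 1860 for Slc1a2 and 1888 for Slc5a9, where the highest rank of a listed gene was 2342. Division by a rank is the form of an FDR adjustment and not of Bonferroni. The constant, 6413.48, is not a whole number, and the exact method was not identified here.

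Further transport genes without an Slc symbol were picked out after their values were seen. Trpv6, an epithelial calcium channel gene, was higher by 1.33 log2 units (adjusted p 0.00335) in the authors' deposited table. Ctns, which encodes the lysosomal cystine exporter cystinosin, was higher by 0.55 (adjusted p 1.84e-14), by the authors' deposited table. Fxyd3, a regulator of the sodium pump, was higher by 0.56 log2 units in the authors' deposited table. Hcar2, a receptor for butyrate and niacin, which Slc5a8 also carries, was higher by 0.75 log2 units (adjusted p 0.000361) in the authors' deposited table. Rsc1a1, named as a regulator of solute carriers, was lower, with -0.64 log2 units in the authors' deposited table. All of its 1700 stretches also occur in Ddi2, so the value is uncertain.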
